A study of Mus musculus with 6 samples.

Results

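The genes described here build cholesterol and fatty acids, control the sterol regulatory element binding proteins (SREBPs) that act on such genes, or carry sterol. They are a fixed list of 34 gene symbols, and all 34 were found among the 33006 genes of the count tables, 33 under their current symbol and Msmo1 under its older symbol Sc4mol. The RNA came from pulmonary endothelial cells isolated from C57BL/6 mice and grown as primary cultures. The 3 control libraries came from cells given water, and the 3 H2O2 libraries from cells given 300 uM hydrogen peroxide, both for 6 hours at 80% confluence in the same endothelial growth medium with its supplements. Both groups carry no other stated treatment or allele, and no label ties the libraries of a group to different mice or dishes. The p-values therefore reflect the spread among 3 libraries a group, and that spread may be technical.

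Animal cells make cholesterol from acetyl-CoA through mevalonate, farnesyl diphosphate, squalene and lanosterol. Fatty acids start from the same acetyl-CoA, which acetyl-CoA carboxylase and fatty acid synthase build into saturated chains, and desaturases and elongases then modify these chains and those taken from the diet. SREBP-2 acts mainly on the sterol genes and SREBP-1 mainly on the fatty acid genes. Both are made as membrane proteins of the endoplasmic reticulum, where SCAP binds them and INSIG proteins hold the complex back while sterols are plentiful. When sterols fall, SCAP escorts the SREBPs to the Golgi, and proteolysis there frees the part that enters the nucleus. Endothelial cells also take up cholesterol from lipoproteins.

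By role, the list holds 18 genes of the sterol branch, 8 of the fatty acid branch, 2 that supply acetyl-CoA to both, and 6 for the control of SREBPs and for sterol transport. All 34 passed the filter on low counts, the least abundant (Tm7sf2) with 5.28 normalised read counts in controls. Normalised read counts here are CPM, the reads of a gene divided by its library's total after TMM scaling and expressed on a common depth. A gene is said to have risen or fallen when edgeR's quasi-likelihood test, adjusted by Benjamini-Hochberg over all 12924 genes tested, gave an adjusted p under 0.05. By that rule 13 members rose and 3 fell, and the other 18 did not pass, 14 of which had values above 0. Over all genes tested, 20.5% passed (9.7% rose and 10.8% fell). All changes were small: of the members that passed, 0 reached 1.2-fold in either direction. By branch, 8 of 18 sterol genes rose and 0 fell, and 3 of 8 fatty acid genes rose and 1 fell; without control replicate 2 the rises were 3 of 18 and 2 of 8. The difference between the branches was not tested.

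**Figure D1:**
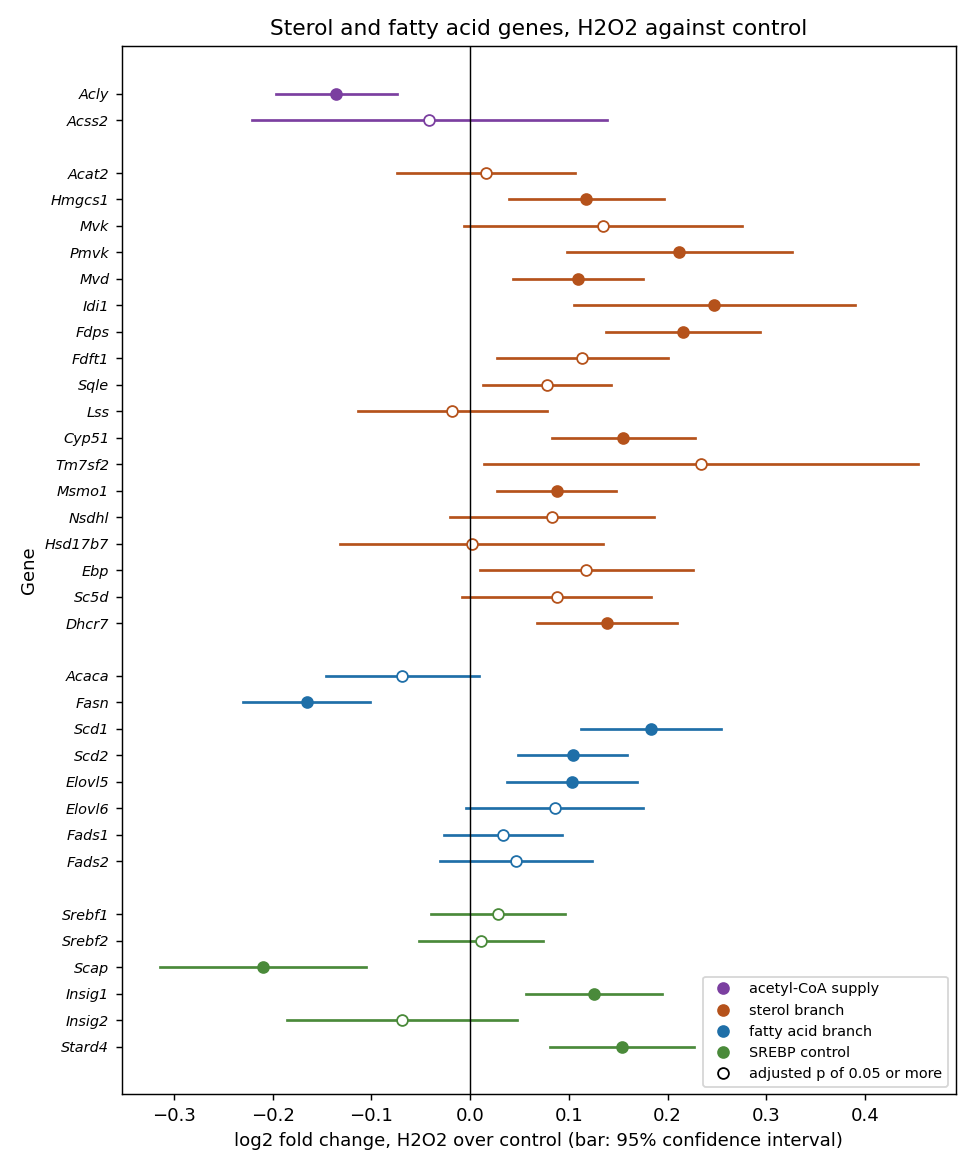
Log2 fold change of each of the 34 genes with H2O2 over control (horizontal axis), with its 95% confidence interval from the edgeR fit as a bar, grouped by role; filled points have an adjusted p under 0.05. Nearly all sterol branch points lie to the right of 0, whereas Acly and Fasn lie to its left and Scap is the lowest of the control genes.

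The libraries held 22455388 to 27618679 gene counts, and no pair of libraries in a group was as alike as counting error alone would give (chi-square over its degrees of freedom 1.62 to 10.96, highest for pairs with H2O2 replicate 3). All 8 endothelial markers passed the filter and together took 3843 to 3973 CPM in controls and 4088 to 4121 with H2O2. Passing the filter does not by itself show a cell type, as the airway marker Krt18, at 0.603 CPM in controls, also passed. The most abundant endothelial marker, Cdh5, was at 1149 CPM in controls and 1197 with H2O2. The least abundant, Vwf, was at 16.3 and 16.6 CPM. Pecam1, Tek and Emcn of that list rose and 0 of the 8 fell (4 higher and 0 lower at an unadjusted p under 0.05, with 0 lower also by DESeq2 and limma-voom), and 5 rose with an offset for exon length and GC content. Over all genes tested, 9.7% rose and 10.8% fell, or 9.29% and 10.5% with that offset. Of 6 alveolar type 2 markers, 2 were at 0 in all libraries (Sftpc and Sftpa1) and only the lipid transporter Abca3 passed the filter, at 69.6 and 68.0 CPM. The 4 adipocyte markers summed to at most 0.0896 CPM. The 6 airway markers summed to at most 1.00 CPM, the 6 smooth muscle and pericyte markers to at most 6.81 and the 3 mesothelial markers to at most 0.558. The 6 fibroblast markers summed to 27.0 to 28.8 CPM in controls and 24.9 to 28.0 with H2O2, most of it Dcn. The 6 leukocyte markers summed to 157 to 164 and 163 to 170 CPM, nearly all of it Cd68, while Ptprc, which defines leukocytes, averaged 0 and 0.0128 CPM. Of the tested markers of other cell types 0 passed by edgeR's quasi-likelihood test, 0 had an unadjusted p under 0.05, and 0 passed by DESeq2 or limma-voom, but 1 fibroblast marker fell without H2O2 replicate 2. The part that cell makeup had in the results below was not tested, and in bulk RNA fewer cells of a type and less RNA per cell cannot be told apart.

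In the sterol branch, 8 of 18 genes rose with H2O2 and 0 fell: Hmgcs1, Pmvk, Mvd, Idi1, Fdps, Cyp51, Msmo1 and Dhcr7. Against this, 9.7% of all genes tested rose. At an unadjusted p under 0.05 the branch had 12 higher and 0 lower, and DESeq2 and limma-voom each called 8 higher and 0 lower. The median log2 fold change of the branch was 0.12, beside -0.0041 over all genes tested, and 17 of 18 values were above 0. In 13 of 18 genes all 3 H2O2 libraries lay above all 3 controls, which held for 16.5% of all genes tested. The summed level of the branch was 1480, 1476 and 1486 CPM in control replicates 1 to 3 and 1621, 1561 and 1605 CPM in H2O2 replicates 1 to 3. The count of rises rested on few libraries: it was 3 without control replicate 2 and 4 without H2O2 replicate 1, with medians of 0.12 and 0.11. In the same fits the rises over all genes tested went from 1254 of 12924 to 891 of 13076 and 900 of 13096.

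Promoter sequence was available for 27 of the 34 members in a RefSeq table (GRCm38.p6, the assembly of mm10). The windows searched were the 250 bases before each annotated start, on both strands, for the letters TCACNCCAC (a sterol regulatory element), CCAAT (bound by NF-Y) and GGGCGG (bound by Sp1). NF-Y and Sp1 are known partners of SREBPs at such promoters. CCAAT was in 14 of 15 sterol branch genes with a window, 2 of 5 fatty acid genes and 4 of 5 control genes, beside 40.7% of the 9430 tested genes with a window and 33.9% of all 32851 windows. GGGCGG was in 14 of 15, 1 of 5 and 5 of 5, beside 64.6% and 32.7%. TCACNCCAC was in 1 member, Hmgcs1, where it begins 137 bases before the start, beside 1.26% of tested genes. A gene with several windows counts once, and a match is a match of letters, not a shown site. Of the fatty acid branch, Scd1, Scd2 and Fads1 had no window, and the window of Acaca lies inside its gene model. Dhcr7 holds CCAAT only in a window inside its gene model.

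The windows of called members that lie wholly before the annotated gene are printed with the genes they belong to, to set genes that rose beside genes that fell. Each is on the strand of its gene and runs toward the start, and capitals mark matches to the 3 motifs on either strand. For the sterol branch these are Hmgcs1 (chr13:119690101-119690350, plus strand), Mvd (chr8:122443423-122443672, minus strand) and Pmvk (chr3:89454291-89454540, plus strand).
Hmgcs1: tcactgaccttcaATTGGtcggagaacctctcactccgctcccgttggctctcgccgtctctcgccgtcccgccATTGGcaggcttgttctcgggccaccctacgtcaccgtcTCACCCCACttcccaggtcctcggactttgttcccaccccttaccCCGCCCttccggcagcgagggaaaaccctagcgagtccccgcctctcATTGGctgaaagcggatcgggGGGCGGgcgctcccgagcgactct
Mvd: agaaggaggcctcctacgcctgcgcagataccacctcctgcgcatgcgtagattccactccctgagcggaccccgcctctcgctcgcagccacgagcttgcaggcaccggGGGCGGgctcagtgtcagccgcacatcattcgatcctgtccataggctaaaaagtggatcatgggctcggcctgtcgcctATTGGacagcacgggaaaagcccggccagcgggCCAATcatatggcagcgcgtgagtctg
Pmvk: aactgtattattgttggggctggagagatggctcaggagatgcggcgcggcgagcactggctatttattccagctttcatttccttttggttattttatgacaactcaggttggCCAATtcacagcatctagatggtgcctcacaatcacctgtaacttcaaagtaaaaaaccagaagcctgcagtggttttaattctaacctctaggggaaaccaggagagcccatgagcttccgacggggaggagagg
Hmgcs1 holds 1 TCACNCCAC, 3 CCAAT and 2 GGGCGG matches, Mvd holds 2 CCAAT and 1 GGGCGG, and Pmvk holds 1 CCAAT.

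The first steps lead from acetyl-CoA to farnesyl diphosphate, and 5 of 7 genes rose there (median 0.13), beside 9.7% of all genes tested. Without control replicate 2 the calls of Hmgcs1, Pmvk, Mvd and Idi1 ended, and that of Fdps stayed. This division of the branch was drawn with earlier results known, and its parts were not compared by a test. Acat2, the cytosolic thiolase that joins acetyl-CoA units, stood at 70.5, 63.5 and 66.2 CPM in control replicates 1 to 3 and at 71.1, 65.5 and 65.9 with H2O2. These groups overlapped, and the log2 fold change was 0.016 (95% confidence interval -0.0742 to 0.106). Hmgcs1, the cytosolic HMG-CoA synthase, gave 159, 161 and 158 CPM in controls and 187, 170 and 163 CPM with H2O2. All H2O2 libraries were above the controls, but H2O2 replicate 1 stood well above the others. Its log2 fold change was 0.12 (SE 0.0383, adjusted p = 0.029 in edgeR's quasi-likelihood test) and 0.063 without H2O2 replicate 1 (adjusted p = 0.27). The call also ended without control replicate 2 (adjusted p 0.062) and without control replicate 3 (adjusted p 0.10), and adjusted p ran up to 0.27 over all alternatives.

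The kinase and decarboxylase genes that turn mevalonate into isoprenoid units rose in 2 of 3 cases. Mvk, mevalonate kinase, was at 15.3, 16.3 and 16.1 CPM in controls and at 18.3, 17.5 and 16.6 CPM with H2O2. The groups did not overlap, but the difference did not pass (0.13, adjusted p = 0.18). Pmvk, phosphomevalonate kinase, went from 29.5, 26.6 and 28.2 CPM to 34.0, 30.9 and 32.8 CPM. This rise of 0.21 (SE 0.0554, adjusted p = 0.0068) lost its call without control replicate 2 (adjusted p 0.062) and without H2O2 replicate 1 (adjusted p 0.052). Mvd, the decarboxylase that yields isopentenyl diphosphate, was at 130, 130 and 128 CPM in controls and at 142, 138 and 139 CPM with H2O2. The groups did not overlap, and Mvd rose by 0.11 (SE 0.0321, adjusted p = 0.015). When all tested genes were split by exon length into 4 equal groups, the shortest had a median log2 fold change of 0.047 and the others -0.012, -0.022 and -0.012, and Mvd and Pmvk are short (1859 and 1713 bases of merged exons). In a fit with a length and GC offset, where 9.29% of all genes rose, 10.5% fell and 9 sterol genes rose, Mvd was at 0.058 and not called (adjusted p = 0.21), whereas Pmvk stood at 0.17 (adjusted p = 0.019). The call of Mvd also ended without control replicate 2 (adjusted p 0.055), control replicate 3 (adjusted p 0.071) or H2O2 replicate 1 (adjusted p 0.071).

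The prenyl enzymes Idi1 and Fdps had the largest changes of the called sterol genes. Idi1, which interconverts the isoprenoid units, gave 15.5, 15.7 and 17.0 CPM in controls and 17.8, 19.4 and 20.0 CPM with H2O2. The rise was 0.25 (SE 0.0690, adjusted p = 0.011), or 1.19-fold, and it ended without control replicate 2 (adjusted p 0.052). Fdps, farnesyl diphosphate synthase (chr3:89093588-89101959, minus strand of mm10), gave 80.1, 79.8 and 82.5 CPM in controls and 96.8, 89.7 and 95.03 CPM with H2O2. Its groups were clearly apart, and the rise of 0.22 (SE 0.0380, adjusted p = 1.4e-04) had the smallest p of the branch. Annotated exons of the gene model Gm43738 cover 26.7% of the exon bases of Fdps on the same strand, so its reads may be counted in part elsewhere.

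The steps from squalene to cholesterol rose in 3 of 11 genes, with a median of 0.088 and 10 of 11 values above 0. Over all genes tested, 9.7% rose. Without control replicate 2, Cyp51 and Dhcr7 stayed called and Msmo1 did not. Fdft1, squalene synthase, was at 65.7, 63.3 and 64.8 CPM in controls and at 69.2, 66.6 and 73.9 CPM with H2O2. It was just outside the threshold (0.11, SE 0.0419, adjusted p = 0.055), with 18.3% of its exon bases covered by exons of Ctsb on the opposite strand. Sqle, squalene monooxygenase, was at 182, 184 and 182 CPM in controls and 195, 185 and 198 CPM with H2O2 (0.078, adjusted p = 0.084). Both lay above all controls in all H2O2 libraries, by little in H2O2 replicate 2, and without that library both passed (log2 fold changes of 0.15 and 0.11). Lss, lanosterol synthase, closes the sterol rings and was the only sterol gene below 0 (-0.018, 95% confidence interval -0.113 to 0.0775), and its groups overlapped.

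Of the enzymes that trim lanosterol, Cyp51, the lanosterol demethylase, gave 133, 130 and 128 CPM in controls and 145, 139 and 152 CPM with H2O2. It rose by 0.16 (SE 0.0352, adjusted p = 0.0021) with no overlap between groups. Msmo1, a sterol methyl oxidase and the most abundant sterol gene by count, went from 322, 329 and 339 CPM to 356, 345 and 351 CPM. The gap between the groups was narrow, and the rise of 0.088 (SE 0.0292, adjusted p = 0.034) ended without control replicate 1 (adjusted p 0.11), control replicate 2 (adjusted p 0.11) or H2O2 replicate 1 (adjusted p 0.12). Its partners in that demethylation, Nsdhl (0.083, adjusted p = 0.27) and Hsd17b7 (0.0015, adjusted p = 0.99), did not pass. Tm7sf2, a sterol reductase, had a large but imprecise value of 0.23 (95% confidence interval 0.0144 to 0.453, adjusted p = 0.13) at 4.95 to 5.46 CPM in controls and 5.99 to 6.49 with H2O2.

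At the end of the route, Ebp, a sterol isomerase, was at 0.12 (adjusted p = 0.12), and Sc5d, a sterol desaturase, at 0.088 (adjusted p = 0.20). Dhcr7, which reduces dehydrocholesterol to cholesterol, gave 95.8, 96.9 and 95.7 CPM in controls and 106, 108 and 104 CPM with H2O2. This is a tight separation, and the rise of 0.14 (SE 0.0345, adjusted p = 0.0044) was called in every fit that left out 1 library, as were those of Fdps and Cyp51.

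**Figure D2:**
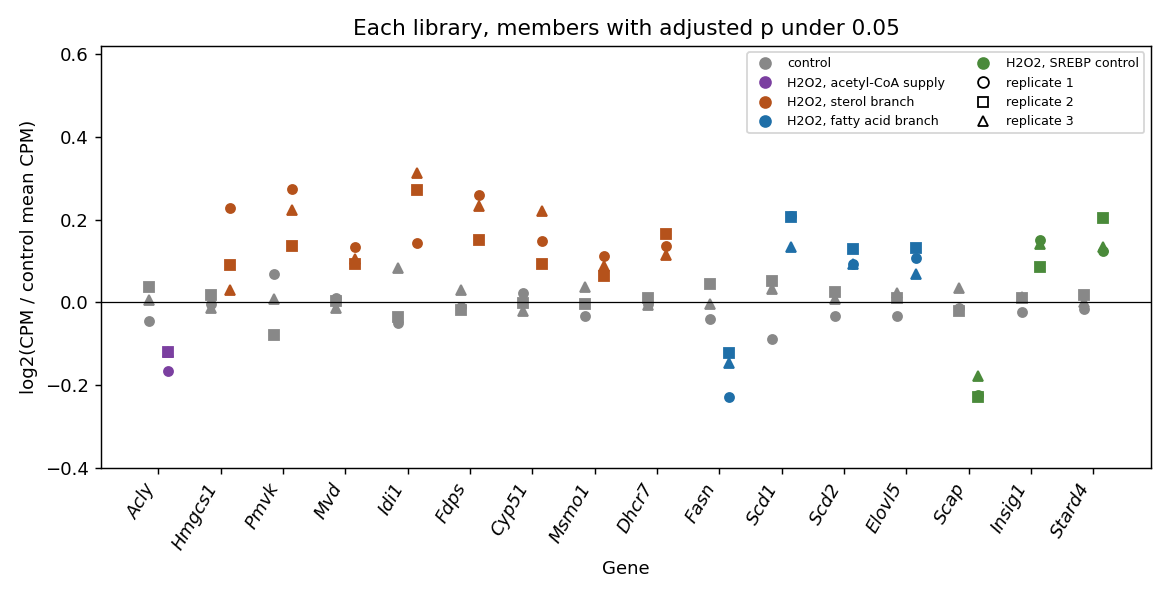
Level of each of the 16 members that passed the test in each library, as log2 of CPM over the control mean (vertical axis); grey points are controls, coloured points are H2O2 libraries by role, and the marker shape gives the replicate. Among the H2O2 points, replicate 1 is the highest for Hmgcs1 and the lowest for Idi1, and the H2O2 points of Acly, Fasn and Scap all lie below 0.

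Other sterol and isoprenoid enzymes, 6 genes listed beside the members, had 2 rises and 1 fall, beside 9.7% and 10.8% of all genes tested. Lbr, a sterol reductase that also anchors chromatin at the nuclear envelope, rose by 0.17 (adjusted p = 0.0013), and Erg28, counted under its older name 0610007P14Rik, rose by 0.18 (adjusted p = 0.011, or adjusted p 0.070 without control replicate 2). Aacs, which activates acetoacetate for lipid synthesis, fell by 0.19 on the log2 scale (adjusted p = 7.6e-04).

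In the fatty acid branch the signs differed by step, a division drawn with earlier results known and not tested. The 2 genes that build the chain lay below 0, with Fasn falling and Acaca not called. All 6 desaturases and elongases lay above 0, with Scd1, Scd2 and Elovl5 rising and Elovl6, Fads1 and Fads2 not called. The branch median was 0.066. In 4 of 8 genes all H2O2 libraries were above all controls, and in 1 they were all below, beside 16.5% and 18.2% of all genes tested. The summed level overlapped between groups, at 2080, 2191 and 2146 CPM in controls and 2190, 2239 and 2177 CPM with H2O2. With Acly and Acss2 counted in, the median was 0.040.

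Acetyl-CoA for both branches comes from Acly, which splits citrate in the cytosol, and Acss2, which activates acetate. Acly gave 308, 326 and 319 CPM in controls and 283, 293 and 292 CPM with H2O2. All H2O2 libraries were below all controls, and the gene fell by 0.14 on the log2 scale (SE 0.0299, adjusted p = 0.0016). Acss2 was the least abundant member per length and did not pass (-0.041, 95% confidence interval -0.221 to 0.138).

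The upstream windows of Acly (chr11:100528001-100528250, minus strand) and Fasn (chr11:120824548-120824797, minus strand), both of which fell, are shown with the same marking.
Acly: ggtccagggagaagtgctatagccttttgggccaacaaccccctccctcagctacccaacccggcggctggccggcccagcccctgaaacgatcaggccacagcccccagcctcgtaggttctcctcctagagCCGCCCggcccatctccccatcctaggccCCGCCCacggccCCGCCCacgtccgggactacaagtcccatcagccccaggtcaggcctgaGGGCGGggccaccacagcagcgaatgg
Fasn: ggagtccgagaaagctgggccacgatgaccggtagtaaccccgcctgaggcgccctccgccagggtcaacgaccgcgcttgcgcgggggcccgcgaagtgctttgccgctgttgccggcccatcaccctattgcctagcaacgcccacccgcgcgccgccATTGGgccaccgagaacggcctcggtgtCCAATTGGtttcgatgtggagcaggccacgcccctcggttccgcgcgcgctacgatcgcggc
Acly holds 4 GGGCGG and no CCAAT, and Fasn holds 3 CCAAT matches and no GGGCGG. In Fasn the stretch CCAATTGG holds overlapping matches, 1 on each strand.

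Chain building showed the single fall of the branch. Fasn, fatty acid synthase (chr11:120805846-120824547, minus strand), was at 396, 419 and 405 CPM in control replicates 1 to 3 and at 347, 374 and 367 CPM with H2O2. The lowest control was above the highest H2O2 library. Fasn fell by 0.17 on the log2 scale (SE 0.0315, adjusted p = 3.4e-04), which is 10.8% lower, and remained called in every alternative. Acaca, acetyl-CoA carboxylase, makes the malonyl-CoA that Fasn uses and stood at 101, 108 and 102 CPM in controls and 98.7, 102 and 95.8 CPM with H2O2. Its groups overlapped, and the value of -0.069 did not pass (95% confidence interval -0.146 to 0.00866, adjusted p = 0.22). Mid1ip1, which promotes the assembly of acetyl-CoA carboxylase, was named after its value was seen and stood at -0.082 (adjusted p = 0.13).

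The stearoyl-CoA desaturases, which place the first double bond in saturated chains, both rose. Scd1 gave 220, 242 and 239 CPM in controls and 270, 269 and 256 CPM with H2O2, a rise of 0.18 (SE 0.0344, adjusted p = 3.0e-04). Control replicate 1 was the lowest library, and the groups did not overlap. Scd2 was the most abundant member and gave 706, 735 and 726 CPM in controls and 770, 789 and 770 CPM with H2O2, a rise of 0.10 (SE 0.0268, adjusted p = 0.0061). Scd1 (chr19:44394455-44407879, minus strand) and Scd2 (chr19:44293674-44306864, plus strand) are neighbours and close paralogs, so reads that match both cannot be assigned and their values are uncertain to that extent.

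Among the elongases, Elovl5, which lengthens polyunsaturated chains, went from 145, 150 and 151 CPM to 160, 163 and 156 CPM. The rise of 0.10 (SE 0.0321, adjusted p = 0.022) lost its call without control replicate 1 (adjusted p 0.070), control replicate 2 (adjusted p 0.061), H2O2 replicate 1 (adjusted p 0.059) or H2O2 replicate 2 (adjusted p 0.066). Elovl6, which lengthens saturated and monounsaturated chains, stood at 43.9 to 45.6 CPM in controls and 46.1 to 48.2 CPM with H2O2, and did not pass (0.086, adjusted p = 0.18). The desaturases of polyunsaturated fatty acids, Fads1 (0.033, 95% confidence interval -0.0266 to 0.0928) and Fads2 (0.047, interval -0.0304 to 0.124), overlapped between groups. Fads3, their relative listed beside the members, fell by 0.27 on the log2 scale (adjusted p = 4.7e-05).

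**Figure D3:**
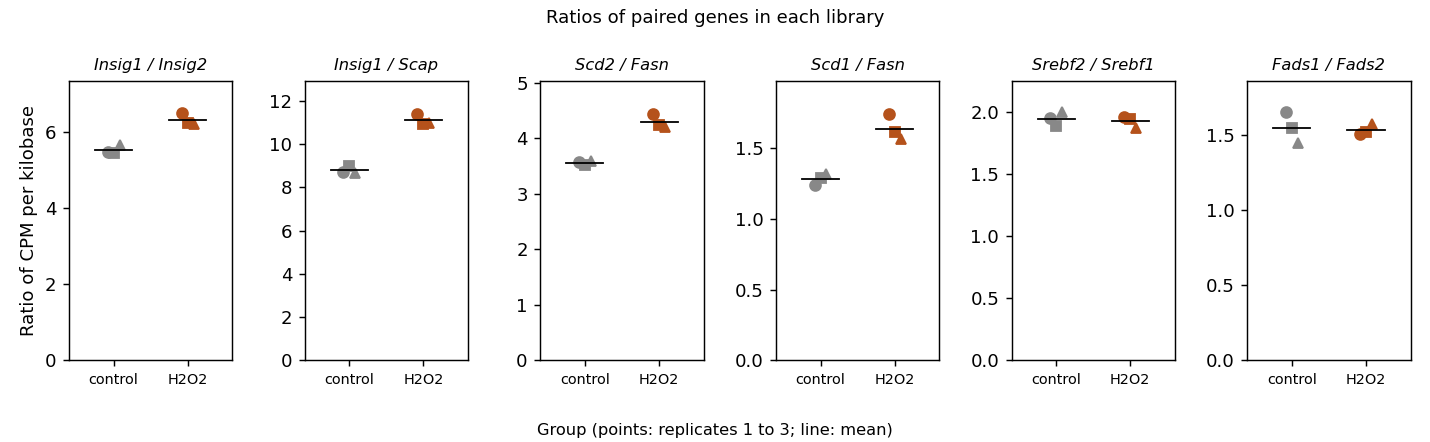
Ratio of the levels of paired genes, in CPM per kilobase of merged exons, in each library (points, shape by replicate) with the group mean (line); each panel starts at 0. The Scd2 to Fasn ratio lies at 3.51 to 3.59 in controls and 4.20 to 4.45 with H2O2, whereas the Srebf2 to Srebf1 and Fads1 to Fads2 ratios overlap between the groups.

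Set against Fasn in the same library, and per length, Scd2 was at 3.56 ± 0.0412 in controls and 4.29 ± 0.133 with H2O2, and Scd1 at 1.28 ± 0.0392 and 1.64 ± 0.0910 (SD, n = 3 each). Cyp51 stood at 0.796 ± 0.0313 of the Fasn level in controls and at 0.995 ± 0.0623 with H2O2. None of these ratios overlapped between the groups. They were formed after the fold changes were known and carry no test.

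The genes that control SREBPs moved in different directions. Neither SREBP gene passed the test. Srebf1 was at 159, 173 and 167 CPM in controls and 168, 169 and 171 CPM with H2O2 (0.028, 95% confidence interval -0.0397 to 0.0961). Srebf2 was at 395, 415 and 427 CPM in controls and 420, 419 and 407 CPM with H2O2 (0.011, interval -0.0512 to 0.0739). In both genes the H2O2 libraries lay within the range of the controls. Per length, Srebf2 was 1.95 ± 0.0564 times the Srebf1 level in controls and 1.92 ± 0.0491 times with H2O2. RNA levels do not show how much of either protein was cleaved.

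Scap, the escort of SREBPs to the Golgi, fell, and Insig1 and Stard4 rose. Scap gave 32.8, 32.6 and 34.0 CPM in controls and 28.3, 28.3 and 29.3 CPM with H2O2, with a wide gap between the groups. It fell by 0.21 on the log2 scale (SE 0.0508, adjusted p = 0.0037), which is 13.5% lower. Exons of 5830462I19Rik on the opposite strand cover 13.2% of its exon bases. Insig1, the retention factor that SREBPs themselves induce, went from 119, 122 and 122 CPM to 134, 128 and 134 CPM, a rise of 0.13 (SE 0.0334, adjusted p = 0.0077). Insig2, its relative that depends less on SREBPs, was at 24.4, 25.1 and 24.3 CPM in controls and at 23.2, 23.1 and 24.1 CPM with H2O2. All 3 H2O2 libraries were lower, but the value of -0.069 did not pass (adjusted p = 0.44). Per length, the ratio of Insig1 to Insig2 was 5.53 ± 0.109 in controls and 6.32 ± 0.156 with H2O2, and that of Insig1 to Scap 8.79 ± 0.173 and 11.1 ± 0.262 (SD, n = 3 each). These ratios restate the changes of the same genes in the same libraries and carry no test. Stard4, a carrier of cholesterol between membranes, went from 95.5, 97.7 and 96.6 CPM to 105, 111 and 106 CPM, a rise of 0.15 (SE 0.0354, adjusted p = 0.0023). The calls of Scap, Insig1 and Stard4 held in every fit that left out 1 library.

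Scap was the control gene that fell, and its upstream window (chr9:110333038-110333287, plus strand) held 0 matches to the 3 motifs.
Scap: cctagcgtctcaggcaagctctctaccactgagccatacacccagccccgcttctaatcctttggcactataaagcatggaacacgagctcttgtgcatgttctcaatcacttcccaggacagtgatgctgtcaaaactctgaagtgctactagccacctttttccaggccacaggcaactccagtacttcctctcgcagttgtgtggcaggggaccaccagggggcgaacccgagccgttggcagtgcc
Another annotated window of Scap, which reaches into the gene, holds 1 GGGCGG.

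Of 8 other genes of SREBP processing and sterol sensing, 1 rose and 1 fell, beside 9.7% and 10.8% of all genes tested. Erlin2 rose by 0.099 (adjusted p = 0.022) and Erlin1 fell by 0.16 on the log2 scale (adjusted p = 0.0014). Both encode proteins of 1 complex in the endoplasmic reticulum. The call of Erlin2 ended without control replicate 1 (adjusted p 0.058), control replicate 2 (adjusted p 0.061) or H2O2 replicate 3 (adjusted p 0.053).

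Sterol uptake and transport had 10 tested genes, of which 1 rose and 1 fell, beside 9.7% and 10.8% of all genes tested. Scarb1, the receptor for high-density lipoprotein, rose by 0.15 (adjusted p = 7.5e-04). Npc1, which exports cholesterol from lysosomes, fell by 0.20 on the log2 scale (adjusted p = 6.5e-04), and its soluble partner Npc2, the most abundant of the list, was at 427 and 430 CPM. Of 6 genes of LXR, the sterol-activated receptor, and its targets, Mylip rose by 0.21 (adjusted p = 0.030) and Apoe by 0.19 (adjusted p = 0.039), the latter with groups that overlapped. Both calls ended by DESeq2's test (adjusted p 0.11 and 0.085) and without control replicate 2, control replicate 3, H2O2 replicate 1 or H2O2 replicate 2, where adjusted p was 0.061 to 0.21, and that of Apoe also with the length and GC offset (adjusted p 0.091). The LXR gene Nr1h2, the most abundant of these, was at 60.7 and 61.8 CPM.

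The remaining lipid lists moved little, where over all genes tested 9.7% rose and 10.8% fell. Among 14 tested genes of other fatty acid synthesis and elongation, Tecr rose by 0.11 (adjusted p = 0.047), and Fads3 was the single fall, whereas with the length and GC offset 0 rose and 3 fell. Tecr, the final reductase of the elongation cycle, was not called by DESeq2 (adjusted p 0.074) or limma-voom (adjusted p 0.052), with the length and GC offset (adjusted p 0.14) or the replicate block (adjusted p 0.057), or without control replicate 2 (adjusted p 0.062), control replicate 3 (adjusted p 0.27), H2O2 replicate 1 (adjusted p 0.075) or H2O2 replicate 3 (adjusted p 0.23). Hsd17b12, the most abundant gene of that list, was at 141 and 141 CPM. Of 6 genes of fatty acid activation and glycerolipid entry, 0 passed by edgeR's test and 0 had an unadjusted p under 0.05 (0 by DESeq2 and limma-voom, and 1 fall without control replicate 1), and the most abundant, Acsl5, stood at 227 and 218 CPM. In fatty acid oxidation, 1 of 14 rose and 1 fell (2 fell without H2O2 replicate 3): Hadha, a subunit of the mitochondrial trifunctional protein and the most abundant of the list, fell by 0.17 on the log2 scale (adjusted p = 1.4e-04). Etfb, an electron carrier subunit, rose by 0.18 (adjusted p = 0.0042), and stood at 0.11 with the length and GC offset, where it was not called (adjusted p 0.067).

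Levels per length spanned a wide range within the list. Scd2 was highest, at 132 CPM per kilobase of merged exons in controls, followed by Mvd (69.6), Fads1 (69.0), Acly (60.3), Srebf2 (57.4) and Msmo1 (53.7). The lowest were Hsd17b7 (3.93), Tm7sf2 (1.199) and Acss2 (0.893). Merged exons join the exons of all annotated transcripts of a gene, so this order depends on that length. Acss2 has 10163 such bases, and by count it was above Tm7sf2 (9.08 and 5.28 CPM in controls). Mvd and Fads1 did not differ beyond the spread of Fads1, which ran from 324 to 342 CPM among controls, and the control ranges of Acly and Srebf2 overlapped per length too. With H2O2, Scd2 stood at 142 and Mvd at 75.1 CPM per kilobase, and Acly, at 54.9, was below Srebf2 (57.8) and Msmo1 (57.1).

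**Figure D4:**
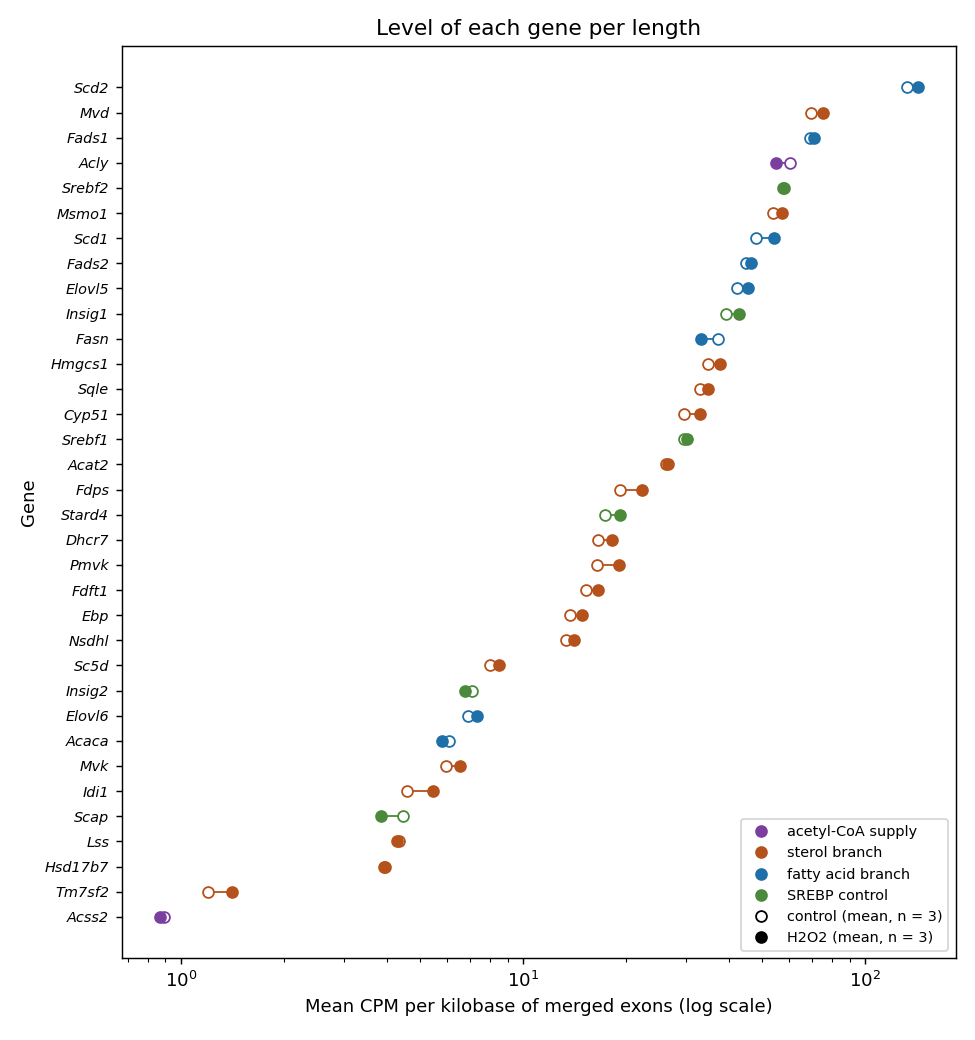
Mean level of each member in CPM per kilobase of merged exons (horizontal log axis), open points for controls and filled points for H2O2 (n = 3 each), coloured by role and ordered by the control level. Scd2 is the highest at 132 and Acss2 the lowest at 0.893 in controls, and every shift between open and filled points is small beside the spread between genes.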

How the data were processed

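Each deposited table lists, for 1 library, how many reads the authors counted for each gene, as whole numbers without normalization. The tools named in the submitters' processing notes are STAR 2.5.3, HTSeq, cutadapt, DESeq2 and bcl2fastq 2.17.1.14, with the build mm10; the annotation and the strand setting are not given in the sources used here, so reads of genes that overlap on opposite strands cannot be told apart. The 5 HTSeq summary classes were left out of library sizes: reads with no feature were 4.76% to 5.46% of counted reads, ambiguous reads 3.17% to 3.30% and reads aligned to several places 11.0% to 11.7%.

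Of 33006 genes, 12924 passed edgeR's filterByExpr. H2O2 was compared with control by edgeR's quasi-likelihood test (edgeR 4.0.16, R 4.3.3) with TMM factors, treatment as the only term and Benjamini-Hochberg adjustment over all genes tested; log2 fold changes, SE and 95% intervals come from that fit. Members, lists and alternatives were chosen with earlier results of these data known. Every member is accounted for; of each other list, the passing gene with the smallest p in each direction and the most abundant gene are named, and any further gene was named after its value was seen. A few genes that this rule would name are not reported here. Alternatives were other scalings, DESeq2 1.42.0, limma-voom (limma 3.58.1), other filters, the replicate number as a block, fits without each library, and a loess offset (span 0.3) over exon length and GC content. Gene models came from GENCODE M21 (GRCm38, as mm10), and 98.9% of tested genes had a length. Libraries held 22455388 to 27618679 gene counts.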

Additional observations from a re-analysis of the deposited data

How the results depend on the processing

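The direction of both branch medians held under every alternative run. The sterol median was 0.099 to 0.13. The fatty acid median was 0.057 to 0.090 over its 8 genes, and 0.040 with Acly and Acss2 counted in. In the main fit the sterol and fatty acid medians were 0.12 and 0.066. With the length and GC offset they were 0.11 and 0.081. They were 0.11 and 0.090 without control replicate 3, and 0.13 and 0.067 without H2O2 replicate 2. The gap between the branches thus varied with the fit and was not tested. Leaving out 1 library at a time, sterol rises numbered 3 (without control replicate 2) to 10 (without H2O2 replicate 2) in place of 8, against 8 to 10 under the other alternatives, and sterol falls were 0 in all. Counts for the other roles stayed within 1.5 times.

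Values that changed sign all belonged to members that did not pass in any fit concerned. Leaving out 1 library at a time, Acat2 ran from -0.020 to 0.062, Lss from -0.063 to 0.016, Hsd17b7 from -0.026 to 0.057 and Srebf2 from -0.014 to 0.037. Lss also stood at 0.00059 with the length and GC offset and at 0.00083 with that offset and the replicate block. The cause was not tested.

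The deviations of same-numbered libraries had correlations of 0.0022, 0.030 and -0.026, and not every library correlated best with its own number. The main fit used no pairing. Deviations over all tested genes also hold counting error, so these correlations cannot show that the numbers pair nothing. With the replicate number as a block, 2738 genes passed in place of 2649 and 9 sterol genes rose, Fdft1 being the addition.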
